A study of Danio rerio with 30 samples.

Results

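The genes described here are those of glycolysis, its reversal in gluconeogenesis, and the handling of lactate and glucose, read paralog by paralog in zebrafish heads. They were chosen by symbol, 41 in all, and 37 of them were measured among 19260 genes with a symbol of their own on the array. Each of the 37 was read by 1 probe set. The symbol gck was on no probe set, and pgam2, fbp1b and pklr lay only on probe sets that carry several symbols, so these 4 have no value. The genes were grouped mostly by the tissue of the mammalian namesake. Some placements are a choice, such as gapdhs and slc16a3a among the shared forms and ldhba among the brain or eye forms. Counts and medians by group depend on them. The groups are 10 measured muscle forms, 9 brain or eye forms, 5 liver forms and 13 shared forms.

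Glycolysis splits glucose into pyruvate in the cytosol, and lactate dehydrogenase turns pyruvate into lactate when the pathway runs faster than mitochondria take it up. Vertebrates carry several isoenzymes for most steps, and each tends to dominate in certain tissues. Muscle uses the M-type phosphofructokinase, aldolase A, enolase 3 and pyruvate kinase M, while neurons use aldolase C and enolase 2. Liver runs part of the pathway backwards with phosphoenolpyruvate carboxykinase and fructose bisphosphatase. Zebrafish kept a second copy of many of these genes from the genome duplication of teleost fish, written a and b. The retina and fast muscle are both heavy users of glycolysis.

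The 30 arrays hold RNA from AB strain fish, 3 arrays for each of 10 groups, and every array is a pool of 5 fish. All tissue ahead of the gills was taken at 5, 10, 15, 20 or 30 days after fertilisation (dpf). The control groups carried a standard morpholino that targets human beta-globin. The knockdown groups carried a splice-blocking morpholino against the donor site of coding exon 3 of grb10a, an adaptor of insulin and insulin-like growth factor receptors. Both were injected into early embryos together with phenol red and nCerulean mRNA, so the injection is common to all groups, and the fish were fed in the aquarium after 5 dpf. A morpholino acts from the start and is diluted as the fish grows, so the later ages are not a lasting deletion. The question for these genes is whether sugar metabolism transcripts change after early grb10a knockdown. A morpholino at exon 4 is also named in the treatment notes. The grb10a signal was 1.01 higher in knockdown at 5 dpf (SE 0.12, adjusted p = 3.59e-07) and did not pass the test later. Where its probes lie is not known here, and a splice block need not lower total signal, so it does not check the labels.

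Values are log2 signals, differences are log2 with their standard error (SE), and a gene "rose" or "fell" where its adjusted p in limma over all genes was under 0.05. The array medians lay between 5.51 and 5.63, and within a group the arrays correlated at 0.968 to 0.990. Precision is limited by having 3 arrays a group. The dimmest 33.3% of genes have a mean under 6.06, and a group mean below that may be held up by background, and a fold to or from it is read as a lower limit. The control arrays at 5 dpf stand apart from all others. Their mean signal over 15 exocrine pancreas markers was 10.87 ± 0.09 (SD, n = 3), against 5.80 ± 0.31 in knockdown at 5 dpf and 5.04 to 7.46 in the other groups. Their mean over 14 liver markers was 9.28 ± 0.11 against 6.06 ± 0.53 in knockdown. Signals of organs behind the gills are thus high in tissue labelled as ahead of them. The control course to the last age is also given from a start without these arrays. So is the test of whether the knockdown difference moved with age. The knockdown differences at 5 dpf and the steps from 5 dpf to the next age need these arrays. Those results therefore have no counterpart without them. Signals were not compared between genes, since each probe set has its own response.

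In control heads most of the pathway was at its lowest at 10 dpf and at its highest at 30 dpf, and the muscle forms led the climb. The lowest group mean lay at 10 dpf for 25 of the 37 genes, and the highest at 30 dpf for 24. The same was not counted over all genes, so these counts do not tell whether the pathway differs from other genes. From 10 to 30 dpf 25 genes rose and 0 fell, where 51.8% of all genes changed, 34.8% upward and 16.9% downward. At an unadjusted p under 0.05, 27 of the 37 changed. For this and the later unadjusted counts, the share over all genes or pairs was not counted. All 10 muscle forms rose, with a median of 1.70 against 0.12 over all genes.

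**Figure D1:**
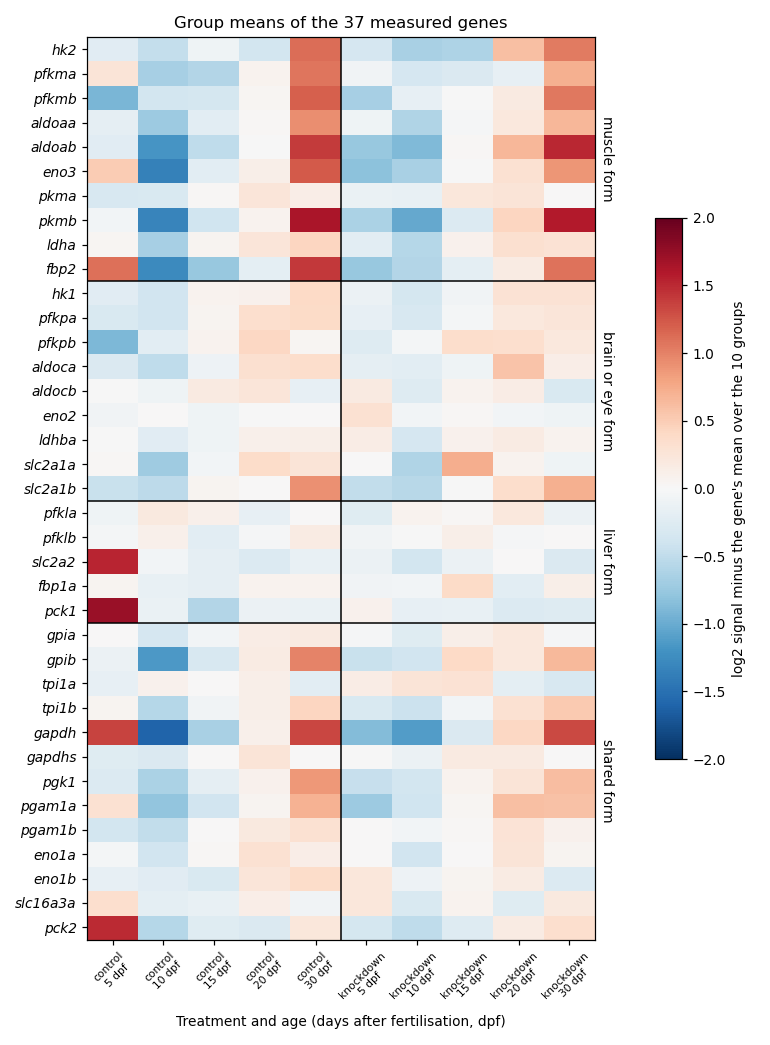
Mean log2 signal of each of the 37 measured genes (rows) in the 10 groups (columns, controls at left), minus that gene's mean over the groups; red is higher and blue lower. Muscle forms such as pkmb and eno3 run from blue at 10 dpf to red at 30 dpf in both treatments, gapdh, fbp2, pck1, pck2 and slc2a2 are red in controls at 5 dpf, and eno2 keeps a control range of 0.10.

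The copy pkmb of pyruvate kinase, the last enzyme of glycolysis, rose by about as much as gapdh. Its control signals were 7.02, 6.70 and 6.90 at 10 dpf and 9.81, 9.86 and 9.76 at 30 dpf, which is 2.94 higher (SE 0.19, adjusted p = 2.81e-12), or 7.68-fold. The groups lay far apart. Enolase 3 (eno3), which makes phosphoenolpyruvate in muscle, went from 8.37, 7.78 and 7.90 to 10.50, 10.52 and 10.75, a rise of 2.57 (SE 0.16, adjusted p = 9.37e-13). The aldolase copy aldoab rose by 2.57 as well (SE 0.21), and its sister aldoaa by 1.66 (SE 0.16). Both split fructose bisphosphate into 3-carbon sugars. At the top of the pathway the hexokinase hk2, the insulin-responsive form of mammalian muscle and fat, rose by 1.59 (SE 0.12), and the phosphofructokinases pfkma and pfkmb by 1.73 and 1.56. The control means of hk2 and pfkma at 10 dpf were 6.05 and 5.49, so both rises are lower limits. So is that of the muscle fructose bisphosphatase fbp2, at least 2.68 (SE 0.32) from a mean of 4.28. Lactate dehydrogenase A (ldha), the form suited to making lactate, rose by 1.08 (SE 0.13), and pkma had the smallest rise of the muscle forms at 0.44 (SE 0.13).

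Some shared forms rose as far as the muscle forms. The signal of gapdh, the enzyme of the oxidising step of glycolysis, was 9.27, 8.49 and 8.49 in controls at 10 dpf and 11.53, 11.53 and 11.99 at 30 dpf. That is 2.93 higher (SE 0.16, adjusted p = 7.5e-14), or 7.64-fold, with no overlap. Its relative gapdhs, named for the sperm form of mammals, did not pass the test, at 12.05, 11.43 and 11.68 against 11.99, 11.95 and 12.08, a difference of 0.29. The isomerase gpib, which converts glucose phosphate to fructose phosphate, rose by 2.15 (SE 0.16), pgk1 by 1.51 and the mutase pgam1a by at least 1.49. Of the 13 shared forms 10 rose, with a median of 0.79. The lactate exporter slc16a3a was not among them, with a difference of 0.14.

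Brain or eye forms were mixed, and no liver form passed the test over this span. Of 9 brain or eye forms 5 rose, with a median of 0.78. The glucose transporter slc2a1b rose by 1.43 (SE 0.14), and its sister slc2a1a by 0.97 (SE 0.24) with overlapping arrays. Neuronal enolase eno2 was level, at 9.75, 9.63 and 9.53 in controls at 10 dpf and 9.75, 9.59 and 9.57 at 30 dpf, a difference of 0.00. Aldolase C copy aldocb differed by -0.07 and ldhba, the lactate dehydrogenase form that favours pyruvate, by 0.34, and neither passed. Of the 5 liver forms 0 changed in limma and 0 had an unadjusted p under 0.05; their median was -0.01. Of these, slc2a2 and pck1 had means under 6.06 at both ages, where background may hide a change. Of the rises in controls, that of eno1b (0.59, adjusted p = 0.00799) was lost without control replicate 2 or 3 of 10 dpf, with values of 0.47 to 0.83 as arrays were left out and a highest adjusted p of 0.0554.

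Knockdown heads, on arrays the controls do not share, also gained signal of most muscle forms from 10 to 30 dpf. There 21 genes rose and 1 fell, where 43.9% of all genes changed, 26.9% upward and 17.0% downward. Of these rises 19 were also called in controls, which is 76% of the control rises and 90.5% of the knockdown rises. The overlap over all genes was not counted, so these shares do not tell whether the pathway differs from other genes. Of the muscle forms 9 of 10 rose, with a median of 1.39; pkma, at 0.16, did not pass. pkmb rose by 2.61 (SE 0.19), gapdh by 2.44 (SE 0.16) and aldoab by 2.39 (SE 0.21). Called in knockdown only were rises of slc16a3a (0.50, adjusted p = 0.0118) and ldhba (0.40, adjusted p = 0.0386) and the fall of tpi1a (-0.58, adjusted p = 0.00516). The control values of these 3 were 0.14, 0.34 and -0.31, and the difference between the courses was not tested. The rise of ldhba was lost under median centring, a second quantile normalization and a fit of only the compared arrays, and without any 1 of knockdown replicates 2 and 3 of 10 dpf and 1, 2 and 3 of 30 dpf, with values of 0.25 to 0.63. That of slc16a3a was lost without knockdown replicate 3 of 10 dpf (highest adjusted p = 0.0638).

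Between neighbouring ages the control course had a drop and 3 steps of unequal size. From 5 to 10 dpf 17 members fell and 2 rose, where 28.5% of all genes changed, 14.7% downward and 13.8% upward. gapdh fell by 2.95 (SE 0.16), from 11.70, 11.78 and 11.62, and eno3 by 1.86 (SE 0.16). pck1 and pck2, the cytosolic and mitochondrial carboxykinases of gluconeogenesis, fell by at least 1.86 and 2.08. The phosphofructokinases pfkmb and pfkpb rose, by 0.54 and 0.69; without control replicate 3 of 5 dpf the value of pfkpb was 0.42. This step starts from the control arrays with pancreas and liver signal, and the part of that signal in it was not tested. Over the same step the mean of 21 skeletal muscle markers went from 9.59 ± 0.02 to 7.97 ± 0.08.

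From 10 to 15 dpf 15 members rose and 0 fell (24.6% of all genes changed, 13.9% upward and 10.7% downward), among them eno3 by 1.15, gapdh by 0.95 and pkmb by 0.92. The count was 8 without control replicate 2 of 10 dpf and 9 without control replicate 3 of 15 dpf. From 15 to 20 dpf pfkma (at least 0.66) and gapdh (0.75) rose, 2 of 37 where 12.4% of all genes changed, 8.34% upward and 4.03% downward; the count was 4 without control replicate 2 of 20 dpf. pfkma was lost without control replicate 1 or 3 of 15 dpf or replicate 2 of 20 dpf (highest adjusted p = 0.106). From 20 to 30 dpf 15 rose and 1 fell, where 31.5% of all genes changed, 22.0% upward and 9.48% downward. In that last step 8 of 10 muscle forms rose, with a median of 1.13, and aldocb fell by 0.41 (SE 0.11). From 5 to 30 dpf 19 members rose and 4 fell, where 51.0% of all genes changed, 34.1% upward and 16.8% downward. The falls were those of slc2a2, pck1, pck2 and slc16a3a, at -1.68, -1.86, -1.27 and -0.41. The control means of slc2a2 and pck1 at 30 dpf were 4.92 and 6.01, so both of their falls are lower limits. The fall of slc16a3a was lost under median centring and without control replicate 1 or 2 of 5 dpf or 2 or 3 of 30 dpf (highest adjusted p = 0.136). Started at 10 dpf instead, none of these 4 genes fell and pck2 rose by at least 0.80.

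The members differed in how closely they followed muscle marker signal, which is a description over 30 arrays that share age groups. The mean of the 21 muscle markers in controls was 9.59, 7.97, 8.67, 9.08 and 10.44 from 5 to 30 dpf. In knockdown it was 8.58 at 5 dpf, 8.34 at 10 dpf, 9.54 at 20 dpf and 10.28 at 30 dpf. Pearson's r with this mean had a median of 0.87 over the muscle forms, 0.57 over shared, 0.44 over brain or eye and 0.14 over liver forms. It was over 0.8 for 13 of the 37 genes, with pkmb at 0.96, gapdh at 0.95, eno3 at 0.94 and aldoab at 0.93. It was below 0 for tpi1a (-0.59), aldocb (-0.25), eno2 (-0.17) and pfkla (-0.12). After group means were removed the median over the 37 genes was 0.15, so most of the likeness to muscle markers lies between groups. With the mean of 17 neuron markers the median r was 0.51, and 0.42 after group means were removed. It was 0.58 over brain or eye, 0.60 over shared and 0.48 over muscle forms. The group names do not always fit: pkma had r of 0.35 with muscle and 0.70 with neuron markers, and slc2a1b 0.82 and 0.51. In a whole head, fewer cells of a type and less RNA per cell cannot be told apart. With the liver marker mean pck1, pck2 and slc2a2 correlated at 0.86, 0.85 and 0.82, and with the intestine marker mean at 0.86, 0.83 and 0.83. After group means were removed the values with liver markers were 0.63, -0.05 and -0.08. The control arrays at 5 dpf weigh heavily in the values over 30 arrays. Their liver marker mean was 9.28, against 5.52 to 6.54 in the other groups. The mean of slc2a2 was 6.59 in them and 4.71 to 5.08 in the other groups, all under 6.06. The correlations without these arrays were not taken.

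**Figure D2:**
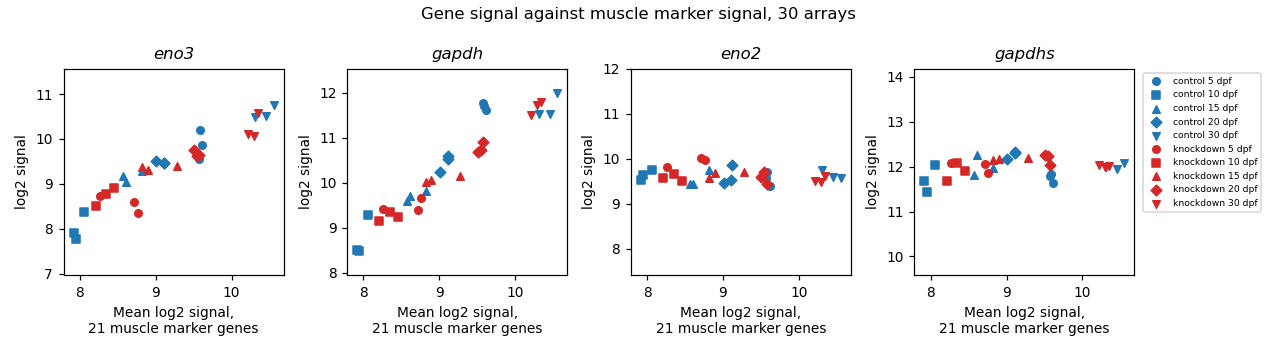
Log2 signal of eno3, gapdh, eno2 and gapdhs on each of 30 arrays (y axis, the same span in every panel) against the mean log2 signal of 21 skeletal muscle marker genes (x axis); colour is treatment and symbol is age. eno3 and gapdh climb with muscle marker signal (r of 0.94 and 0.95) with gapdh in controls as high at 5 dpf as at 30 dpf (difference -0.02), while eno2 and gapdhs stay nearly level (r of -0.17 and 0.22).

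At 5 dpf the knockdown heads had lower signal of gapdh, of both carboxykinases and of muscle enolase, and slightly higher signal of 2 forms of brain or eye. Of the 37 genes 2 rose and 7 fell, where 12.0% of all genes changed, 5.47% upward and 6.51% downward. The share of members that rose was close to that of all genes. The median was -0.04 against 0.02 over all genes. gapdh was 11.70, 11.78 and 11.62 in controls and 9.66, 9.41 and 9.39 in knockdown, a fall of 2.21 (SE 0.16, adjusted p = 5.28e-11), or 4.64-fold lower. eno3 was 10.21, 9.56 and 9.85 against 8.35, 8.73 and 8.59, and fell by 1.32 (SE 0.16, adjusted p = 8.53e-07). Neither pair of groups overlapped. The mutase pgam1a, which moves the phosphate of phosphoglycerate, was 6.71 ± 0.17 (SD, n = 3) against 5.67 ± 0.34, a fall of at least 1.04 (adjusted p = 0.000304).

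The other falls at 5 dpf were on the gluconeogenic and hepatic side. pck2 was 7.87, 8.15 and 7.81 in controls and 5.87, 6.13 and 6.25 in knockdown, a fall of 1.86 (SE 0.18, adjusted p = 1.22e-08). pck1 was 7.73, 8.08 and 7.81 against 6.61, 6.31 and 5.76, a fall of 1.65 (SE 0.23, adjusted p = 6.13e-06). The transporter slc2a2, the low-affinity glucose carrier of liver and pancreas, fell by at least 1.63, from 6.58, 6.54 and 6.67 to 4.94, 5.25 and 4.70. In all 3 genes the groups stood clear of each other. The muscle fructose bisphosphatase fbp2 fell by at least 1.87 (SE 0.32, adjusted p = 0.000155), but its control arrays were spread, at 5.32, 7.44 and 7.20. The other liver forms did not pass: fbp1a differed by -0.13, pfkla by -0.16 and pfklb by -0.03.

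Both rises at 5 dpf were in the brain or eye group, and 2 of 37 is close to the 5.47% of all genes that rose. eno2 was 9.71, 9.57 and 9.40 in controls and 9.97, 9.82 and 10.02 in knockdown, a rise of 0.38 (SE 0.12, adjusted p = 0.033). pfkpb, the second copy of the platelet-type phosphofructokinase that mammalian brain also uses, was 6.48, 6.42 and 5.65 against 6.77, 6.83 and 6.88, a rise of 0.64 (SE 0.17, adjusted p = 0.0125). Control replicate 3 was the low array, and without it pfkpb was at 0.37 and no longer passed (adjusted p = 0.134). The call of eno2 was lost without control replicate 2 or 3 or knockdown replicate 1 or 3, with values of 0.30 to 0.45 and a highest adjusted p of 0.161.

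Marker genes of other tissues moved at 5 dpf as well. Of 21 muscle markers 20 fell, with a median of -0.93; of 15 exocrine pancreas markers 15 fell (-5.66), of 14 liver markers 13 (-3.29) and of 13 intestine markers 10 (-3.04). Of 17 photoreceptor markers 9 rose, with a median of 0.54. Of 17 neuron markers 0 changed in limma, with a median of 0.10. Of the 10 muscle forms 2 fell, eno3 by 1.32 and fbp2 by at least 1.87, and the shared form gapdh fell by 2.21. The other 8 muscle forms did not pass the test, among them aldoab (-0.52), pkmb (-0.58), pfkma (-0.32) and ldha (-0.25). Of the 10, 3 had a difference above 0. The part of these tissues in the falls was not tested.

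**Figure D3:**
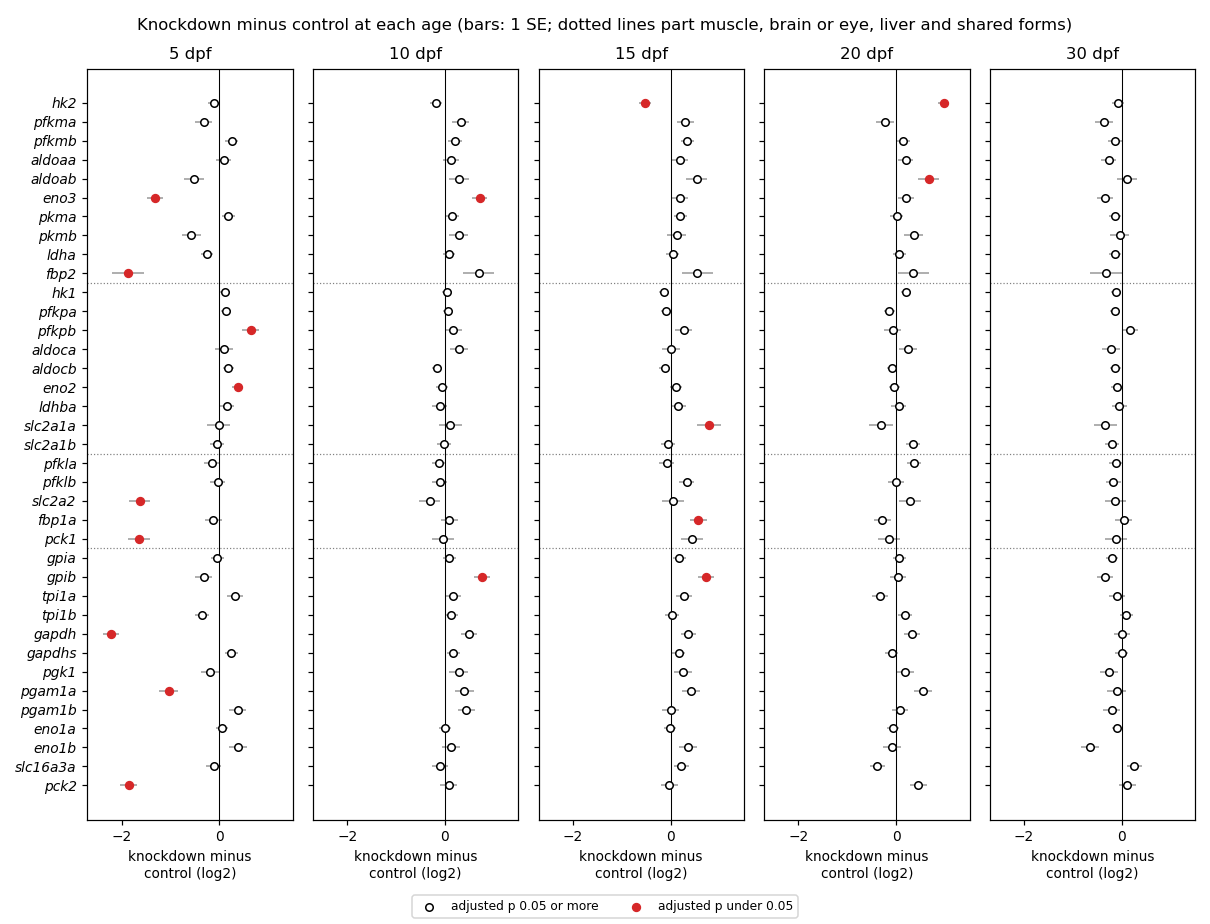
Knockdown minus control (x axis, log2) for each of the 37 genes (rows) at 5, 10, 15, 20 and 30 dpf (panels), with bars of 1 SE; filled red points passed an adjusted p of 0.05 and open points did not. The 7 falls and 2 rises at 5 dpf give way to 2, 4, 2 and 0 called genes at the later ages, with hk2 to the left of 0 at 15 dpf and to the right at 20 dpf.

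From 10 dpf on, few members differed, with gpib called at both 10 and 15 dpf and hk2 at both 15 and 20 dpf. At 10 dpf 2 rose and 0 fell of 37, where 2.67% of all genes changed, 1.76% upward and 0.914% downward. The isomerase gpib was 7.36, 6.90 and 6.54 in controls and 7.75, 7.77 and 7.57 in knockdown, a rise of 0.77 (SE 0.16, adjusted p = 0.0109). eno3 was 8.37, 7.78 and 7.90 against 8.77, 8.90 and 8.50, a rise of 0.71 (SE 0.16, adjusted p = 0.0159). In both the groups do not overlap. The gpib call was lost without control replicate 2 or 3 or knockdown replicate 2 (0.57 to 0.98, highest adjusted p = 0.0736). That of eno3 was lost without control replicate 2 or 3 or knockdown replicate 1 or 2 (0.59 to 0.88, highest adjusted p = 0.135). Without control replicate 1 the count was 4. Of the muscle markers 2 of 21 rose (median 0.38), and of the photoreceptor markers 5 of 17 fell (median -0.32). Their part in these rises was not tested.

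At 15 dpf 3 members rose and 1 fell, where 12.0% of all genes changed, 9.18% upward and 2.84% downward. gpib was higher again, at 7.88, 7.62 and 7.80 in controls and 8.33, 8.54 and 8.60 in knockdown, a rise of 0.73 (SE 0.16, adjusted p = 0.00527) that held as each array was left out. The glucose transporter slc2a1a, counterpart of the carrier of the blood-brain barrier and of red cells in mammals, was 8.92, 9.19 and 9.07 against 9.97, 9.89 and 9.65. It rose by 0.78 (SE 0.24, adjusted p = 0.0347) with no overlap, and by 0.71 to 0.88 as arrays were left out, of which control replicates 1 and 3 and knockdown replicates 1 and 2 ended the call. Liver-type fructose bisphosphatase fbp1a was 6.55, 7.34 and 7.29 against 7.81, 7.57 and 7.51, a rise of 0.57 (SE 0.17, adjusted p = 0.0322). Control replicate 1 was its low array, and without it the value was 0.31; that array, or knockdown replicate 1 or 2, ended the call (highest adjusted p = 0.258). The whole count was 2 without knockdown replicate 1 or 2. Of the muscle markers 8 of 21 rose at 15 dpf (median 0.44), of the exocrine pancreas markers 9 of 15 (1.39) and of the liver markers 2 of 14 (0.20), and their part in these rises was not tested.

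The fall at 15 dpf was that of hk2, and at 20 dpf the same gene rose. At 15 dpf hk2 was 6.38, 6.50 and 6.41 in controls and 5.80, 5.87 and 6.06 in knockdown, a fall of at least 0.52 (SE 0.12, adjusted p = 0.00539). At 20 dpf it was 6.17, 6.21 and 6.10 in controls and 7.16, 7.24 and 6.99 in knockdown, which is 0.97 higher (SE 0.12, adjusted p = 2.82e-06), or 1.96-fold. All 3 knockdown arrays lay below all controls at 15 dpf and above all controls at 20 dpf, and both calls held as each array was left out. Between 15 and 20 dpf the knockdown difference thus moved up by at least 1.49 (SE 0.17, adjusted p = 4.72e-07). By 30 dpf control and knockdown met, at 7.64 ± 0.10 and 7.56 ± 0.10. At 20 dpf the means had been 6.16 ± 0.06 and 7.13 ± 0.13.

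At 20 dpf 2 of 37 rose and 0 fell, where 14.5% of all genes changed, 10.2% upward and 4.31% downward, and the second gene was the muscle aldolase aldoab. It was 9.38, 8.22 and 9.13 in controls and 9.84, 9.53 and 9.35 in knockdown, a rise of 0.66 (SE 0.21, adjusted p = 0.0327) with overlapping arrays. Control replicate 2 was low, and without it the value was 0.32 (adjusted p = 0.322); the call was also lost without knockdown replicate 1 or 2. The count was 4 without control replicate 1. Of the 21 muscle markers 7 rose at 20 dpf, with a median of 0.48, and of 14 liver markers 5 rose. Of 17 photoreceptor markers 1 rose and 2 fell. The part of these tissues in the rises was not tested. The carboxykinase pck2 (0.46), pgam1a (0.54) and slc16a3a (-0.38) did not pass.

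At 30 dpf 0 of 37 genes passed in limma, where 1.00% of all genes did, 0.363% upward and 0.639% downward. At an unadjusted p under 0.05 there were 3, eno3 (-0.34), gpib (-0.35) and eno1b (-0.64). For the enolase copy eno1b the control arrays were 7.65, 7.46 and 7.45 and the knockdown arrays 6.79, 6.87 and 6.97, which do not overlap. The gene was chosen here after its values were seen. Fitted on the arrays of 30 dpf alone, 1 gene passed. The same kind of fit, on only the compared arrays, ended the calls of eno2 and pfkpb at 5 dpf, gpib and eno3 at 10 dpf, fbp1a and hk2 at 15 dpf and aldoab at 20 dpf. The median over the 37 genes was -0.13 against -0.04 over all genes, and of the muscle markers 0 of 21 passed.

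**Figure D4:**
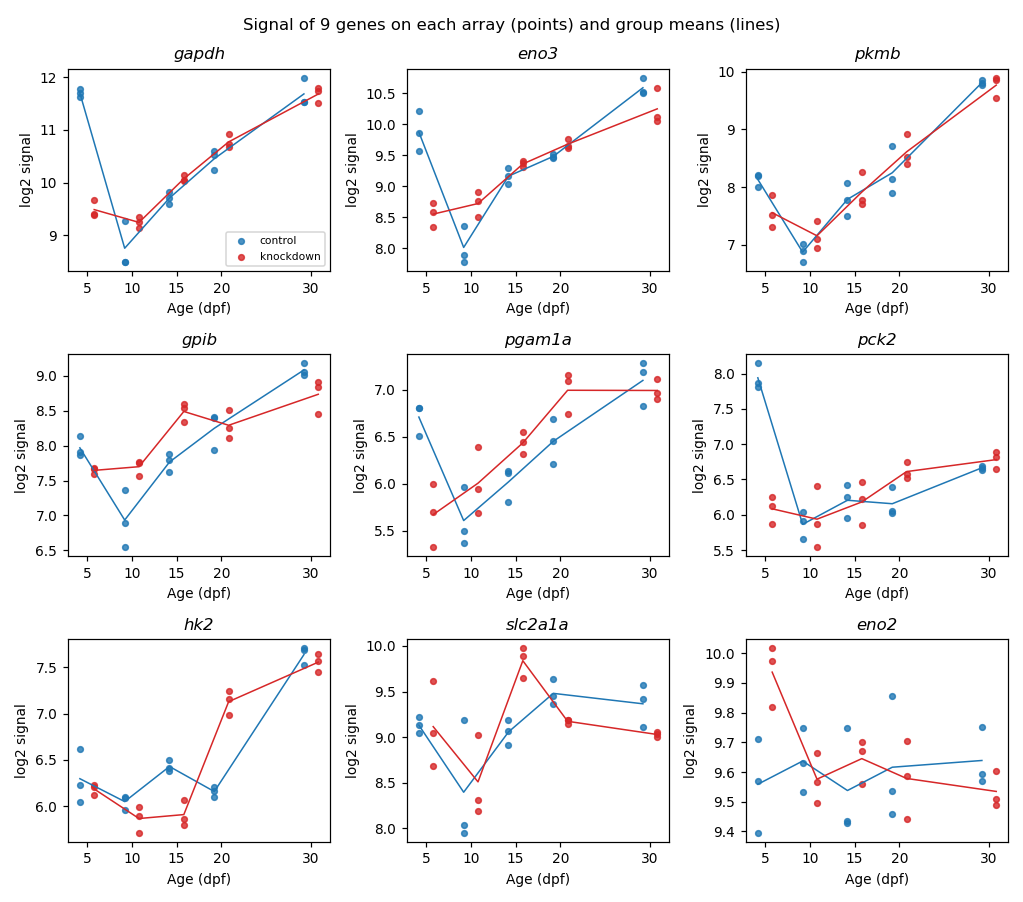
Log2 signal (y axis, its span differs by panel) of 9 genes on each array (points) against age, with lines through the group means; controls are blue and knockdown red, set slightly apart. The control arrays at 5 dpf are far above knockdown for gapdh, eno3 and pck2, gpib is higher in knockdown at 10 and 15 dpf, and hk2 is lower in knockdown at 15 dpf and higher at 20 dpf.

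The knockdown difference itself moved with age for 11 of the 37 genes (F test of limma over the 5 ages). This share is close to the 31.7% of all genes for which it did. The 11 are therefore no more than the share of all genes would give. They were hk2, aldoab, eno3, fbp2, slc2a2, pck1, gpib, gapdh, pgam1a, eno1b and pck2. With the 5 dpf arrays left out it was 7, of which 5 are among the 11, and without control replicate 1 of 10 dpf it was 18. The share over all genes in these fits is not given here, so these counts cannot be set against a background. From 5 to 10 dpf the difference moved upward, from a value below 0 at 5 dpf, for 9 genes and downward for 0, where 10.0% of all genes moved, 6.19% upward and 3.84% downward. The steps were 2.71 for gapdh, 2.56 for fbp2, 2.03 for eno3, 1.93 for pck2, 1.60 for pck1, 1.43 for pgam1a and 1.32 for slc2a2. Group means under 6.06 enter the values of fbp2, pck1, pck2, pgam1a and slc2a2. gpib moved by 1.09 and pkmb by 0.86. The pkmb step (adjusted p = 0.0449) was lost under median centring, with only the compared arrays and without any 1 of 9 of the 12 arrays it uses, all but knockdown replicate 1 of 5 dpf, control replicate 1 of 10 dpf and knockdown replicate 3 of 10 dpf. All 9 use the control arrays of 5 dpf.

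From 10 to 15 dpf 0 of 37 moved in limma, where 11.1% of all genes did, 6.82% upward and 4.26% downward; 1 had an unadjusted p under 0.05 (eno3), and 1 passed without control replicate 1 of 10 dpf or without control replicate 2 of 15 dpf. From 15 to 20 dpf hk2 moved up and slc2a1a (-1.09, adjusted p = 0.0239), fbp1a (-0.85, adjusted p = 0.014) and gpib (-0.68, adjusted p = 0.0374) moved down, 4 of 37 where 20.8% of all genes moved, 9.26% upward and 11.5% downward. slc2a1a turned over: its knockdown arrays were above all controls at 15 dpf and, at 9.19, 9.15 and 9.19 against 9.63, 9.36 and 9.45, below them at 20 dpf, where the difference of -0.31 did not pass. Its step was lost without control replicate 1 or knockdown replicate 1 of 15 dpf or control replicate 1 of 20 dpf (highest adjusted p = 0.0598). The step of fbp1a was lost without control replicate 1 of 15 dpf (-0.60, adjusted p = 0.0549). That of gpib was lost without any 1 of 8 of its 12 arrays (highest adjusted p = 0.103). The count was 2 without control replicate 1 of 20 dpf. From 20 to 30 dpf hk2 moved down by 1.05 (SE 0.17, adjusted p = 0.000295), 1 gene where 7.56% of all genes moved, 1.43% upward and 6.13% downward.

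Some paralogs of the same enzyme changed unequally, at shares near those of all pairs in control development. For 11 pairs with both copies measured, the log2 signal of the a copy minus that of the b copy was taken on each array and tested among 2470 such pairs of the whole array. The value tells whether copies changed unequally and says nothing of which is more abundant. In controls from 10 to 30 dpf 7 of 11 pairs moved, where 49.7% of all pairs did. The pyruvate kinase pair moved most, with pkma minus pkmb at 1.33, 1.23 and 1.00 at 10 dpf and -1.32, -1.49 and -1.12 at 30 dpf, a fall of 2.50 (SE 0.20, adjusted p = 1.08e-10). The isomerase pair gpia/gpib fell by 1.65 (SE 0.16), and the aldolases aldoaa/aldoab by 0.91 (SE 0.19). The triose phosphate isomerase pair tpi1a/tpi1b went from -1.06, -1.28 and -1.61 to -2.63, -2.64 and -2.60 (SE of the change 0.18, adjusted p = 9.87e-07). In these 4 pairs the change of the b copy was the more upward. The pairs aldoca/aldocb (at least 0.93), pgam1a/pgam1b (at least 0.70) and pfkpa/pfkpb (0.52) went the other way. The last was lost without control replicate 3 of 10 dpf or replicate 1 of 30 dpf, with values of 0.35 to 0.67, and pgam1a/pgam1b without control replicate 1 of 30 dpf (adjusted p = 0.0512).

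Over 30 arrays the copies of a pair correlated at 0.92 for aldoaa and aldoab, at 0.69 for gpia and gpib and at 0.44 for pkma and pkmb. The 2 triose phosphate isomerases ran in opposite directions, at -0.47, while within groups they correlated at 0.35. From 5 to 30 dpf 6 of 11 control pairs moved, where 41.1% of all pairs did. They were gpia/gpib (-0.95), pfkma/pfkmb (-1.28), pkma/pkmb (-1.23), slc2a1a/slc2a1b (-1.13), aldoaa/aldoab (-0.52) and aldoca/aldocb (at least 0.80). The aldoaa/aldoab call was lost under a second quantile normalization and without control replicate 2 or 3 of either age (highest adjusted p = 0.118).

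**Figure D5:**
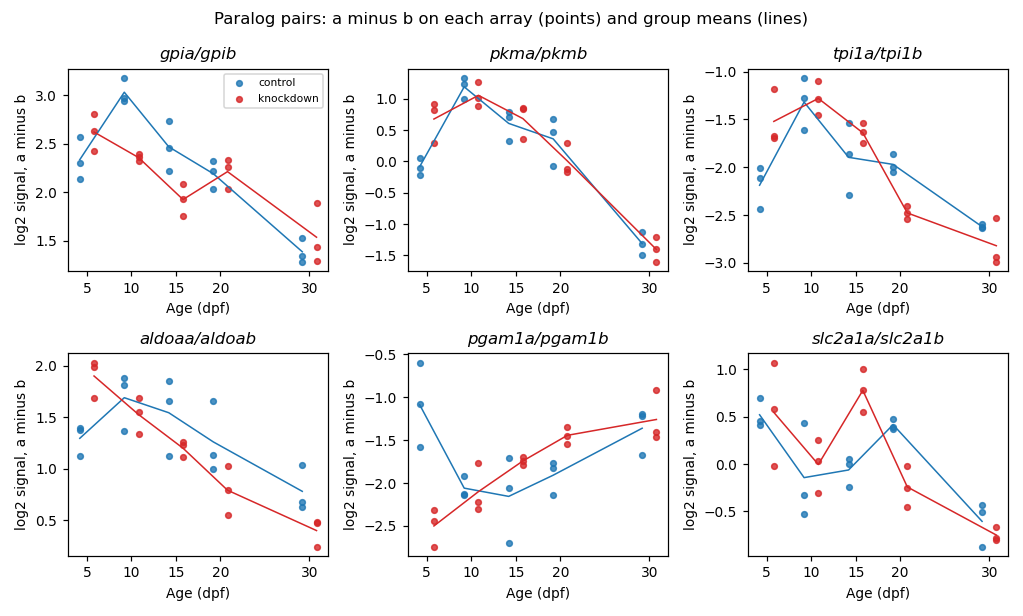
Log2 signal of the a copy minus the b copy (y axis, its span differs by panel) for 6 paralog pairs on each array (points) against age, with lines through group means; controls are blue and knockdown red. gpia/gpib and pkma/pkmb fall from 10 to 30 dpf in both treatments, pgam1a/pgam1b is lower in knockdown at 5 dpf, and slc2a1a/slc2a1b is higher in knockdown at 15 dpf.

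Between knockdown and control, 4 of 11 pairs differed at 5 dpf, where 9.76% of all pairs did. The mutase pair pgam1a/pgam1b was -1.58, -1.08 and -0.60 in controls and -2.74, -2.31 and -2.45 in knockdown. This is a fall of at least 1.41 (SE 0.23, adjusted p = 5.31e-05) that held as each array was left out. It is a lower limit because the knockdown mean of pgam1a was 5.67. pkma rose relative to pkmb by 0.76 (SE 0.20, adjusted p = 0.0122), tpi1a relative to tpi1b by 0.67 (SE 0.18, adjusted p = 0.0146) and aldoaa relative to aldoab by 0.61 (SE 0.19, adjusted p = 0.0425). In each of these 3 pairs neither copy passed the test alone. The pkma/pkmb call was lost without control replicate 2 or knockdown replicate 2 or 3 (highest adjusted p = 0.0807), and tpi1a/tpi1b without control replicate 3 or knockdown replicate 1 (0.113). aldoaa/aldoab was lost without any 1 of the 3 controls or of knockdown replicates 2 and 3 (0.147). The count was 2 without control replicate 3 or knockdown replicate 2 or 3. With only the compared arrays, the calls of aldoaa/aldoab and tpi1a/tpi1b at 5 dpf and of gpia/gpib at 10 and 15 dpf were lost.

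At 10 dpf 1 pair differed, where 1.90% of all pairs did: gpia fell relative to gpib by 0.67 (SE 0.16, adjusted p = 0.0266). On the arrays gpia minus gpib was 2.94, 2.97 and 3.18 in controls and 2.36, 2.39 and 2.32 in knockdown, with no overlap. The call was lost without control replicate 2 or 3 or knockdown replicate 1 or 2 (highest adjusted p = 0.12). At 15 dpf 2 pairs differed, where 6.76% of all pairs did. gpia fell relative to gpib by 0.54 (SE 0.16, adjusted p = 0.0426), and slc2a1a rose relative to slc2a1b by 0.84 (SE 0.22, adjusted p = 0.0227). Each call at 15 dpf was lost as some single arrays were left out. For gpia/gpib these were control replicates 2 and 3 and all 3 knockdown arrays (highest adjusted p = 0.166). For slc2a1a/slc2a1b they were control replicate 3 and knockdown replicates 1 and 2 (0.125). Without control replicate 3, or knockdown replicate 1 or 2, 0 of 11 pairs passed. At 20 and 30 dpf 0 pairs passed in limma, where 7.77% and 1.26% of all pairs did; 4 and 1 had an unadjusted p under 0.05.

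Other genes around the pathway were read from a list of 59, of which 52 were measured. At 5 dpf 14 fell and 0 rose in knockdown, where 12.0% of all genes changed and 6.51% fell. The 4 with the smallest p were pcxb (-1.78), a pyruvate carboxylase that feeds gluconeogenesis, the liver glycogen phosphorylase pygl (-2.18), the glucose phosphatase g6pc1a.2 (-3.28) and the liver glycogen synthase gys2 (-2.64). Like pck1 and slc2a2, these belong to liver metabolism. Markers of liver, exocrine pancreas and intestine fell at the same age, and their part in these falls was not tested. The knockdown means of pcxb, g6pc1a.2 and gys2 at 5 dpf were under 6.06, so the falls of these genes are lower limits. At 10 dpf the muscle glycogen phosphorylase pygma (0.74) and gpd1c (0.59), a glycerol phosphate dehydrogenase, rose, 2 of 52 where 2.67% of all genes changed. At 15 dpf 7 rose and 0 fell, near the 12.0% of all genes that changed, with pfkfb4a (0.77), which makes the activator of phosphofructokinase, gpd1c (0.66), pdhx (0.57) of the pyruvate dehydrogenase complex and the glucose transporter slc2a12 (0.57) first. At 20 dpf pgm2 (0.79), a phosphopentose mutase, and the monocarboxylate transporter slc16a1b (0.61) rose, while mpc2a (-0.41), part of the mitochondrial pyruvate carrier, and slc2a12 (-0.55) fell, 4 of 52 where 14.5% of all genes changed. The control means of slc2a12 were 4.40 at 15 dpf and 4.89 at 20 dpf. Both are under 6.06, so background may hold up its signal and the sizes of both its changes are lower limits. At 30 dpf 0 of 52 passed in limma, where 1.00% of all genes did.

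In controls from 10 to 30 dpf 20 of the 52 rose and 10 fell, a share close to the 51.8% of all genes that changed. The 4 with the smallest p were pygma (3.43, SE 0.18), pgm1 (1.64), gys1 (1.29) and pygb (1.27), the glycogen phosphorylase of brain. The second muscle glycogen phosphorylase pygmb did not pass (-0.10, adjusted p = 0.448). pgm1 links glycogen breakdown to glycolysis, and gys1 is the glycogen synthase of muscle. In knockdown 16 rose and 6 fell over these ages, where 43.9% of all genes changed, with these 4 genes first: pygma at 2.63, gys1 at 1.24, pygb at 1.11 and pgm1 at 1.28.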

How the data were processed

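The authors deposited 1 log2 signal for each probe set and array. Per the submitters' processing notes RMA produced them; its version and settings: not given in the sources used here. No further normalization was applied. Symbols came from the array annotation, updated through Entrez identifiers for 20323 probe sets. The 20806 probe sets with 1 symbol (27.7% of 75212) were kept, and the brightest per symbol gave 19260 genes; 855 with several symbols were not used. Each array is a pool of 5 fish, so p-values measure how pools vary.

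limma 3.58.1 in R 4.3.3 fitted 1 mean per group over 30 arrays, with 20 residual and 6.05 prior degrees of freedom (7.21 for pairs). Tests are two-sided, adjusted by Benjamini-Hochberg over all genes or pairs of a comparison, threshold 0.05. Any measured member could be named, and of other pathway genes the 4 with the smallest p; examples were picked after their values were seen. In 3 simulated draws with 200 of 19260 genes changed at 5 dpf, 89% of changes of 1 and 30% of changes of 0.5 (log2) were recovered and 2.46% of calls were false, as were 7.25% of calls of pairs, which is above the threshold. The draws used normal noise that was independent between genes and arrays, and changed fewer genes than the 2308 called at 5 dpf. The simulated shares are therefore not error rates of the calls reported here. Members, lists and comparisons were chosen with earlier results of these data known. Alternatives were median centring, a second quantile normalization, a robust spread with an intensity trend, a filter on dim genes, the mean of all probe sets, only the compared arrays, a replicate block and each array left out; leaving out 5 dpf and starting at 10 dpf were added after seeing the data. Figures used matplotlib 3.10.9 in Python 3.11.15.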

Additional observations from a re-analysis of the deposited data

Results flagged for a closer look

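The knockdown difference moved between neighbouring ages for 12 genes in 14 steps that passed the test of the step itself. By step, in order of age, 9, 0, 4 and 1 of the 37 genes moved. Over all genes 10.0%, 11.1%, 20.8% and 7.56% moved in the same steps, so the members lay below that share from 10 dpf on. From 5 to 10 dpf the step was 2.03 for eno3, 0.86 for pkmb, 2.56 for fbp2, 1.32 for slc2a2, 1.60 for pck1, 1.09 for gpib, 2.71 for gapdh, 1.43 for pgam1a and 1.93 for pck2. All 9 rest on the control arrays of 5 dpf, whose exocrine pancreas marker mean was 10.87 against 5.80 in knockdown; the part of that signal was not tested. From 15 to 20 dpf the step was 1.49 for hk2, -1.09 for slc2a1a, -0.85 for fbp1a and -0.68 for gpib. Over these ages the exocrine pancreas marker mean of knockdown was 7.46 ± 0.64 and then 5.04 ± 0.07 (SD, n = 3), and that of controls 6.32 ± 0.62 and then 5.16 ± 0.03; its part in the steps was not tested. From 20 to 30 dpf the step of hk2 was -1.05.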

How the results depend on the processing

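No result changed direction under any alternative run. Only median centring, the second quantile normalization and leaving out an array of the comparison could alter a difference. The other settings keep the group differences of these genes, so their direction was fixed and only the p-value could change. There were 173 calls, each of a gene or pair in a comparison, so the same gene can count several times. Of their values under other settings, 1257 of 1304 kept the call and 47 lost it. With an array left out, 979 of 1122 kept it and 143 lost it. With only the compared arrays, which leaves fewer degrees of freedom, the counts of called genes between knockdown and control were 0 at 10 dpf, 2 at 15 dpf, 4 at 20 dpf and 1 at 30 dpf. The counts of pairs were 2 at 5 dpf, 0 at 10 dpf, 1 at 15 dpf and 2 at 20 dpf. In the same setting 3 genes moved from 20 to 30 dpf, and the control steps held 5 genes from 10 to 15 dpf and 1 from 15 to 20 dpf. The control step from 15 to 20 dpf was the least settled count, with 6 under median centring, 6 under a second quantile normalization, 5 with an intensity trend and robust spread and 5 without dim genes. Median centring left 1 gene at 20 dpf, where aldoab was lost. Leaving out dim genes, which drops fbp2 and slc2a2, gave 2 genes for the step of the difference from 20 to 30 dpf and 1 pair at 20 dpf. The trend with robust spread left 1 pair at 15 dpf. Without the 5 dpf arrays the F test called 7 genes and 1 pair passed at 20 dpf, and fbp1a at 15 dpf, aldoab at 20 dpf and the step of gpib from 15 to 20 dpf lost their calls; 3 genes were called at 20 dpf, of which 1 (hk2) is among those reported. Shares over all genes or pairs are not given here for the alternatives. The cause was not tested except where named.

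Same-numbered knockdown and control arrays deviated together weakly at some ages, with 4 of 15 correlations over 0.1 (range -0.116 to 0.276). These were replicates 1 and 3 of 10 dpf (0.276 and 0.178) and replicates 1 and 2 of 20 dpf (0.179 and 0.12). Whether arrays of the same number share a batch is not known here, and the main fit has no term for the number. With the replicate block, 4 genes were called at 20 dpf, 2 for the step of the difference from 20 to 30 dpf and 4 for the control step from 15 to 20 dpf; the other counts stayed within 1.5 times.

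With an array left out, the counts of genes between knockdown and control ranged from 7 to 9 (5 dpf), 0 to 4 (10 dpf), 2 to 5 (15 dpf), 1 to 4 (20 dpf) and 0 to 0 (30 dpf), by age. The counts for the steps of the difference ranged from 8 to 12, 0 to 1, 2 to 6 and 1 to 1. Control steps ranged from 15 to 21, 8 to 21, 2 to 4 and 13 to 16, with 20 to 23 for 5 to 30 dpf and 24 to 27 for 10 to 30 dpf. Knockdown from 10 to 30 dpf held 20 to 23 genes and the F test 11 to 18. Pairs ranged at 5 dpf from 2 to 4, at 10 dpf from 0 to 1 and at 15 dpf from 0 to 2, and were 0 later. In controls they ranged from 5 to 6 for 5 to 30 dpf and 5 to 8 for 10 to 30 dpf.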
